A study of Mus musculus with 6 samples.

Results

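The 78 genes described here code for the proteins of the cytosolic ribosome of the mouse. They are every symbol in the deposited table of 31854 rows that reads as an Rpl or Rps subunit name, without pseudogene suffixes and without Rps27l, with 1 row kept for a repeated symbol. Of these symbols 48 name large subunit genes and 30 name small subunit genes. The set holds 73 core subunit genes (44 large and 29 small) and 5 paralogs that the naming pattern also takes in, Rpl3l, Rpl10l, Rpl32l, Rpl39l and Rps4l.

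The cells were 4T1, a mouse mammary carcinoma line. The 3 LINC01133 samples carried a pLVX plasmid that expresses LINC01133, a human long noncoding RNA, and their genotype label reads LINC01133 overexpression. The 3 control samples carried the pLVX vector without an insert and are labelled WT. Both groups grew in the same serum-supplemented medium, and the labels' protocols give TruSeq libraries from total RNA. The labels give neither the promoter that drives LINC01133 nor whether each line is a clone or a pool. They do not state that replicates are separate cultures either, so a p-value here reflects the spread among 6 samples that may be technical repeats. LINC01133 itself was not analysed here.

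A ribosome is made of a small subunit, which reads the mRNA, and a large subunit, which joins amino acids and releases the chain through an exit tunnel. Each subunit is built in the nucleolus from ribosomal RNA and proteins that are normally supplied in near equal numbers. Mammalian ribosomal protein mRNAs are known to begin with a run of pyrimidines, the terminal oligopyrimidine or TOP motif, through which mTOR signalling and the RNA-binding protein Larp1 control their translation.

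A run of pyrimidines near the annotated start was found in part of the set. RefSeq promoter sequences (GRCm38.p6, the mm10 assembly) matched 54 of the 73 core symbols. An unbroken run of at least 8 C or T letters on the gene's strand, overlapping the 20 bases either side of the annotated start, was present in 29 of these 54 genes (53.7%), against 23.7% of all 27025 symbols in the promoter table. It was present in 59.4% of large and 45.5% of small subunit genes. The window does not require the run to begin at the first base of the transcript, so it is looser than the TOP motif. The 8 stretches below, each 50 bases before to 25 bases after a start, were chosen after their values were seen. They show 4 genes with strong falls and a run (Rpl38, Rpl34, Rps27, Rps10), 2 with small falls and a run (Rpl7a, Rps15a), and 2 with strong falls and no run of that length there (Rps2, Rps28). Capitals mark the run. Rpl34 has a further annotated start, not shown.
Rpl38, chr11:114668530-114668604, plus strand: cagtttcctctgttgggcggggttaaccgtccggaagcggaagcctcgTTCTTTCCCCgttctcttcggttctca
Rpl34, chr3:130730313-130730387, minus strand: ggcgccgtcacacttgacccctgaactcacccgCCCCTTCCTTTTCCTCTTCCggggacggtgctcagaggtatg
Rps27, chr3:90213624-90213698, minus strand: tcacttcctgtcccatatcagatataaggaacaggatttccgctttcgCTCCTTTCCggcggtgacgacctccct
Rps10, chr17:27635220-27635294, minus strand: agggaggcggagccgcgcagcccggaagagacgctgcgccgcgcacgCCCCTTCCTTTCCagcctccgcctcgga
Rpl7a, chr2:26910757-26910831, plus strand: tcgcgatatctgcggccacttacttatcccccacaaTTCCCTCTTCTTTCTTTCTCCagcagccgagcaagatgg
Rps15a, chr7:118116123-118116197, minus strand: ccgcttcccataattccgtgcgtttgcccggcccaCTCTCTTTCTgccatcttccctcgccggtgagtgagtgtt
Rps2, chr17:24720013-24720087, plus strand: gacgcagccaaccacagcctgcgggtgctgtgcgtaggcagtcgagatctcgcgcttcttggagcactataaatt
Rps28, chr17:33824538-33824612, minus strand: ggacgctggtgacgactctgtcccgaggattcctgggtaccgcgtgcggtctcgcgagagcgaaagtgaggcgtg
Genes with and without the run overlapped in their response: the median log2 fold change, LINC01133 over control, was -0.73 over the 29 genes with it and -0.62 over the 25 without it. The letters CCGGAAG, bound by ETS factors such as GABP, stood on either strand of the 300-base window in 22 of 54 genes (40.7%), against 9.93% of all symbols. On the opposite strand these letters can overlap a C and T run. The letters AAGATGGC, bound by YY1, stood on either strand in 5 of 54 genes (9.26%), against 3.19% of all symbols. Such matches describe letters in a window, not binding.

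With LINC01133, nearly the whole set of ribosomal protein mRNAs was lower. Of the 76 members with enough counts to be tested, 72 (94.7%) were lower, 2 were higher and 2 were not called, at an adjusted p under 0.05 in edgeR's quasi-likelihood test over all 14116 genes tested. In the same test 40.5% of all genes were lower and 44.5% higher. Scaling by library size alone split all genes into 7847 higher and 4228 lower in place of 6280 higher and 5710 lower, and it shifted the median of all genes up by 0.244 on the log2 scale; 63 members were still lower under it. The median log2 fold change was -0.65 over the members and 0.05 over all genes tested. A fall of over 1.5-fold was found in 46 members (60.5%), against 24% of all genes. A fall of over 2-fold was found in 18 members (23.7%), against 13.9%, and a rise of over 2-fold in 1 member, Rpl3l, against 20.3%. The 3 LINC01133 values all lay under the 3 control values in 71 members, against 40.5% of all genes, and all lay above them in 3 members, Rpl21, Rpl30 and Rpl3l, against 44.5%. The same measurement in bulk RNA cannot tell fewer transcripts per cell from a changed mix of cells, and each value is relative to the other RNA in its library.

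Levels are given as CPM, counts per gene scaled to the library's effective size, and the heat map of core genes shows how alike the replicates were.

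**Figure D1:**
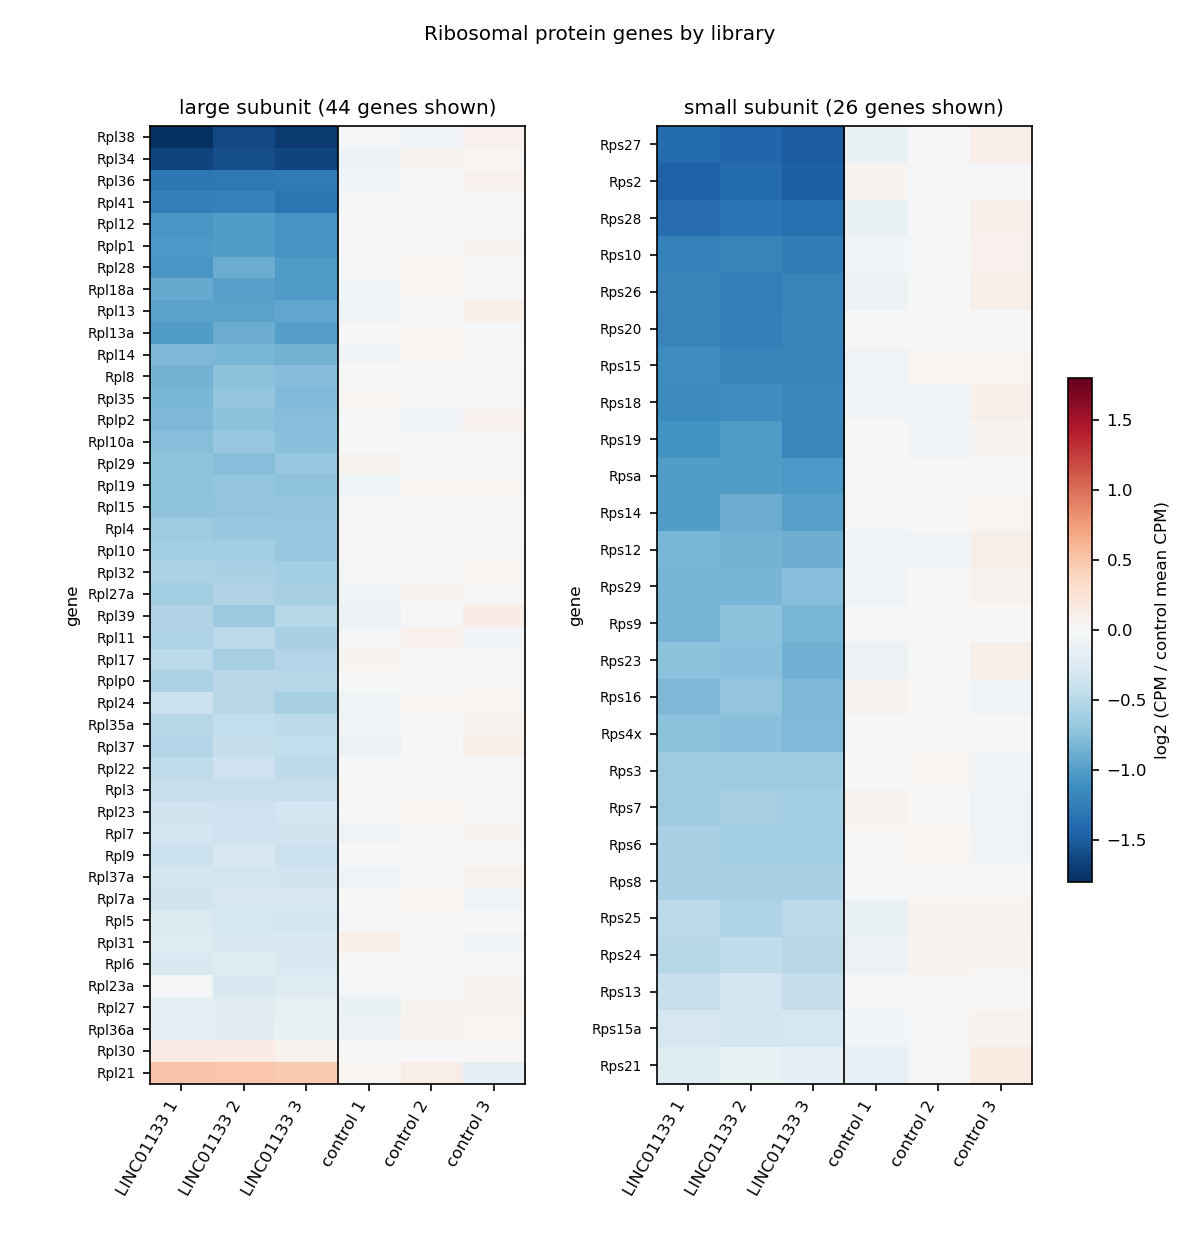
Colour gives log2 of each library's CPM over the mean CPM of the 3 control libraries, for 44 large (left) and 26 small subunit genes (right), with the LINC01133 libraries left of the control libraries. Genes are sorted by fold change, so Rpl38 and Rps27 are at the top and Rpl21 and Rps21 at the bottom; Rpl21 and Rpl30 were above the control mean in every LINC01133 library.

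The median coefficient of variation between replicates was 2.39% over the core genes in LINC01133 libraries and 3.48% in control libraries. The standard error of a core gene's log2 fold change ran between 0.0194 and 0.0866.

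The set took a smaller part of each library. Members held 1.17% ± 0.00888 of all counts in LINC01133 libraries and 1.67% ± 0.0394 in control libraries (SD, n = 3 each). The 45S ribosomal RNA precursor row, Rn45s, moved with this: it held 21.9% ± 0.978 of LINC01133 counts and 26.7% ± 1.24 of control counts. With Rn45s out of the total, the share was 1.496% ± 0.0133 in LINC01133 libraries and 2.28% ± 0.0255 in control libraries, so the gap was no smaller. Library totals were 26719396 to 33877549 counts with LINC01133 and 25521469 to 27035127 in controls. Markers of cell identity differed between the groups as well. Of 8 mammary epithelial markers 5 were higher and 3 lower, with summed levels of 384 to 392.2 CPM in LINC01133 libraries and 155 to 164 CPM in control libraries, where Epcam was at 0. The 5 leukocyte markers summed to 16.9 to 18.0 CPM with LINC01133, of which Cd68 and Itgam gave nearly all, and to 3.20 to 3.91 CPM in controls, where Cd3e was at 0. The 6 fibroblast markers summed to 5.86 to 6.29 CPM with LINC01133 and to 109 to 114 CPM in controls. Pdgfrb gave nearly all of the control sum, and Lum was listed at 0 in every library. These markers did not move 1 way: 2 were called lower, 1 was called higher and 3 were not tested. The marker called higher averaged 4.15 CPM with LINC01133 and 0.0137 CPM in controls. The 4 endothelial markers summed to 15.1 to 15.7 CPM with LINC01133 and to 0.25 to 0.854 CPM in controls. The part of these differences in the ribosomal protein result was not tested.

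The fall was deeper in the small subunit than in the large one. Summed large subunit levels were 6422, 6541 and 6409 CPM in LINC01133 libraries, against 10130.1, 10208 and 10373 CPM in control libraries. Summed small subunit levels were 4275, 4336 and 4248 CPM in LINC01133 libraries, against 7865, 7949.5 and 7977 CPM in control libraries. The groups did not overlap in either sum. Sums weight genes by abundance, so a few abundant genes can set much of their change, whereas medians give each gene equal weight. Gene by gene, the median log2 fold change was -0.585 over the 47 large subunit members tested and -0.80 over the 29 small subunit members tested, a difference of 0.21. No test was made of this difference, since the genes of a subunit are not replicates. Lower calls numbered 44 of 47 in the large and 28 of 29 in the small subunit, against 40.5% of all genes tested. Falls of over 2-fold numbered 7 (14.9%) in the large and 11 (37.9%) in the small subunit, against 13.9% of all genes. The large subunit count of such falls was thus near the share over all genes.

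**Figure D2:**
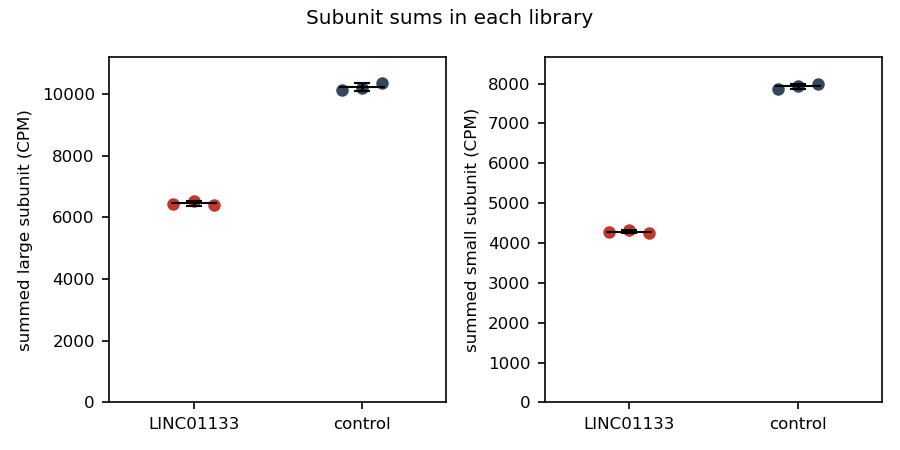
Points are libraries, bars the group mean and SD (n = 3), with LINC01133 left of control. The panels give the summed CPM of the large subunit members and that of the small subunit members; in each the 3 LINC01133 libraries lie under the 3 control libraries.

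Among large subunit proteins the strongest falls were in Rpl38, Rpl34 and Rpl36, besides the paralog Rpl10l. Rpl38, a protein that in mice is needed for axial skeleton patterning (chr11:114668524-114672331), had 14, 17 and 16 CPM in LINC01133 libraries, against 51.5, 51.1 and 55.4 CPM in control libraries. Rpl34 (chr3:130726831-130730398) had 59.8, 62.1 and 59.8 CPM in LINC01133 libraries, against 176, 193 and 192 CPM in control libraries. Rpl36 (chr17:56613416-56614243) had 36.9, 37.1 and 37.6 CPM in LINC01133 libraries, against 87.7, 88.9 and 96.3 CPM in control libraries. For each of these genes every LINC01133 library lay far under every control library. Their log2 fold changes were -1.74 ± 0.0564 for Rpl38, -1.63 ± 0.0319 for Rpl34 and -1.29 ± 0.0403 for Rpl36 (± SE; edgeR quasi-likelihood adjusted p = 6.9e-60, 8.8e-85 and 2.6e-62). They correspond to levels 3.34-fold, 3.09-fold and 2.44-fold lower with LINC01133. Coordinates here are those of GENCODE M21 on GRCm38.

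The mRNAs of all 4 proteins of the P stalk, the flexible arm that recruits elongation factors, were lower. Their median log2 fold change was -0.90, and 40.5% of all genes tested were lower. Rplp1 had 333, 341 and 326 CPM in LINC01133 libraries, against 677, 663 and 708 CPM in control libraries (log2 fold change -1.04 ± 0.0223, SE). Rpl12, which binds at the stalk base, had 188, 193 and 187 CPM in LINC01133 libraries, against 389, 389 and 390.1 CPM in control libraries (-1.04 ± 0.0236). Rplp2, the partner of Rplp1, and Rplp0, the anchor that holds both, fell less. Rplp2 had 128, 135 and 132 CPM with LINC01133, against 221, 215 and 237 CPM in controls (-0.77 ± 0.028). Rplp0 had 653, 686 and 676 CPM with LINC01133, against 971, 947 and 981 CPM in controls (-0.52 ± 0.0204). Within 1 structure the mRNAs of the stalk thus changed by unequal amounts, with the adjusted p of all 4 between 4.2e-80 and 8.1e-49 by edgeR's quasi-likelihood test.

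The pair that binds 5S ribosomal RNA fell modestly. Rpl5 had 279, 268 and 265 CPM in LINC01133 libraries, against 329, 340.5 and 333 CPM in control libraries. Rpl11 had 47.3, 49.5 and 46.2 CPM in LINC01133 libraries, against 68.0, 72.9 and 66.8 CPM in control libraries. Free Rpl5 and Rpl11 are known to bind Mdm2, the ligase that marks p53 for breakdown. Log2 fold changes were -0.30 ± 0.0235 for Rpl5 and -0.54 ± 0.0411 for Rpl11 (± SE; edgeR quasi-likelihood adjusted p = 1.1e-24 and 5.6e-25), without overlap between the groups for either gene. Scaling by library size alone left Rpl5 at -0.0596 and took its call away.

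Genes of the catalytic core and exit tunnel fell too. Rpl3, which lies near the peptidyl transferase centre, had 206 CPM in each LINC01133 library, against 280.0, 274.7 and 271 CPM in control libraries (log2 fold change -0.42 ± 0.0243). Rpl10, whose joining is a late step of large subunit assembly, had 263, 259 and 251 CPM in LINC01133 libraries, against 402, 394 and 407 CPM in control libraries (-0.64 ± 0.0231). Rpl4, which reaches into the tunnel, had 884, 861 and 865 CPM in LINC01133 libraries, against 1372, 1380 and 1391 CPM in control libraries (-0.67 ± 0.0194). The mRNAs of the 7 tunnel proteins in the list were all lower, with a median of -0.57, against 40.5% of all genes tested. The weakest, Rpl23a, had overlapping groups. It had 12.5, 10.5 and 10.8 CPM with LINC01133, against 12.5, 12.4 and 13.1 CPM in controls (-0.17, edgeR quasi-likelihood adjusted p = 0.046). Its call was lost under 12 of the 18 alternatives, among them library size alone, where the value turned to 0.07. Rpl39, another tunnel protein and X-linked, had 26.6, 24.6 and 27.0 CPM with LINC01133, against 35.7, 37.6 and 42.5 CPM in controls (-0.57 ± 0.055).

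Rpl10a, part of the mobile L1 stalk by which used tRNA leaves, had 109, 115 and 109 CPM with LINC01133, against 183, 184 and 187 CPM in controls, a log2 fold change of -0.73. Rpl22, known in mice for a part in T cell development, had 79.5, 83.7 and 78.5 CPM with LINC01133, against 109, 109 and 108 CPM in controls, a log2 fold change of -0.43. Rpl8, which lies by the peptidyl transferase centre, and Rplp1 had the highest levels per kilobase of the large subunit. Per kilobase of the deposited gene length, Rpl8 averaged 729.8 CPM with LINC01133 and 1263 CPM in controls, and Rplp1 averaged 712 CPM with LINC01133 and 1459 CPM in controls. Levels per kilobase over the core large subunit genes ran from 4.99 to 1085 CPM as a mean over all libraries, with a median of 126 CPM.

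The other 23 core large subunit genes were all lower, with no overlap between the groups in any of them. Over all genes tested 40.5% were called lower and 40.5% lay lower without overlap. At the deep end Rpl41, which codes for a very short basic peptide, had 82.5, 83.3 and 78.1 CPM with LINC01133, against 191, 195 and 196 CPM in controls (log2 fold change -1.25 ± 0.0296). At the shallow end Rpl6 had 326, 338 and 327 CPM with LINC01133, against 394, 392.4 and 395 CPM in controls (-0.25 ± 0.0225), and Rpl31 gave -0.26 ± 0.0553. The small differences of Rpl6 and Rpl31 still exceeded the spread between replicates, but neither was called under library size alone (-0.01 for Rpl6 and -0.02 for Rpl31). Rpl37a (-0.34) lost its call under that scaling as well (-0.09). Between these ends Rpl13a, whose protein can leave the ribosome after interferon gamma and repress translation, had 146, 159 and 148 CPM with LINC01133, against 294, 300.0 and 287 CPM in controls (-0.96 ± 0.0259). Rpl41, Rpl6, Rpl31, Rpl37a and Rpl13a were singled out after their values were seen.

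The exceptions were at the low end of the levels per kilobase of the deposited gene length. Rpl21 (chr5:146832890-146837032) had 13.2, 13.0 and 12.8 CPM in LINC01133 libraries, against 9.47, 10.0 and 8.24 CPM in control libraries. Every LINC01133 value was above every control value, and Rpl21 was the one core gene called higher (log2 fold change 0.49 ± 0.0866, SE; edgeR quasi-likelihood adjusted p = 1.5e-07). Rpl30 (chr15:34440505-34443640), known in yeast for repressing the splicing of its own transcript, had 15.4, 15.4 and 14.8 CPM with LINC01133, against 14.02, 14.2 and 14.04 CPM in controls. Its groups did not overlap either, but it was not called (0.11 ± 0.0748, adjusted p = 0.16 by the same test). Scaling by library size alone or by upper quartiles gave 0.35 and 0.21 and called Rpl30 higher. Per kilobase of the deposited gene length these genes were the lowest core members of the large subunit. Rpl21 stood at 5.84 CPM with LINC01133 and 4.15 CPM in controls, and Rpl30 at 6.17 CPM and 5.72 CPM. The rank of Rpl30 depends on its deposited length of 2461 bases, 2.78 times its main transcript of 886 bases. Without division by length Rpl23a, averaging 11.3 CPM with LINC01133 and 12.7 CPM in controls, lay under Rpl30, at 15.2 CPM and 14.1 CPM. Both Rpl21 and Rpl30 share sequence with other genes. A stretch of 50 bases in common with the main transcript of Rpl21 was found in 82 other annotated genes, and for Rpl30 in 17. This was not particular to them: the counts were 123 for Rpl7a (log2 fold change -0.32) and 71 for Rps2 (-1.43), both called lower. Of the 50-base stretches of the main transcript, 26.2% were shared for Rpl21 and 79.2% for Rpl30. Counted separately by name, the annotation holds 15 pseudogenes named for Rpl21, 9 for Rpl30 and 24 for Rpl31, which was called lower. How the authors' counting treated such reads is not given in the sources used here. Rpl27 had 33.8, 33.3 and 34.6 CPM with LINC01133, against 34.9, 39.3 and 39.6 CPM in controls (-0.16), and Rpl36a, X-linked, had 21.0, 20.7 and 21.8 CPM with LINC01133, against 22.1, 24.6 and 24.4 CPM in controls (-0.16). Both were called lower, and under library size alone both turned to 0.08 and were not called. Upper-quartile scaling took both calls away as well. Rpl36a also lost its call under DESeq2, at a threshold of 0.01 and without control replicate 2.

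**Figure D3:**
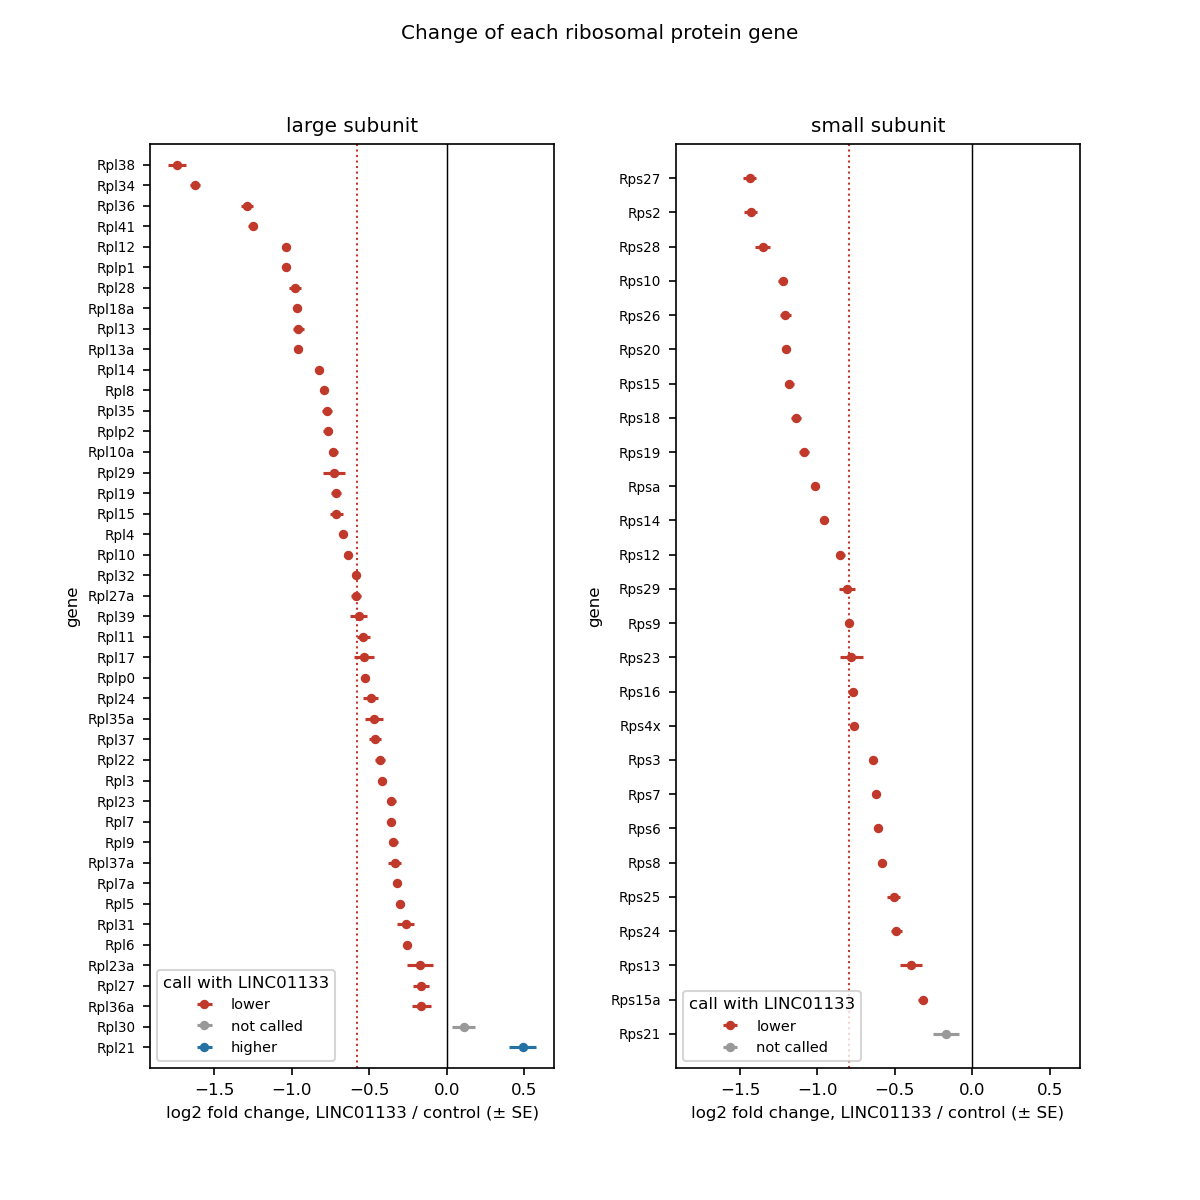
Points give the log2 fold change, LINC01133 over control, of 44 large (left) and 26 small subunit genes (right) with its SE; the dotted lines are the medians over all core genes, -0.58 and -0.80. Only Rpl21 and Rpl30 lie right of 0 under this scaling; under library size alone Rpl23a, Rpl27, Rpl36a and Rps21 do as well.

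In the small subunit Rps27, Rps2 and Rps28 had the lowest fold changes. Rps27, a zinc-binding protein (chr3:90212522-90213651), had 40.8, 39.4 and 37.7 CPM in LINC01133 libraries, against 97.4, 106 and 115 CPM in control libraries. Rps2, which lines the mRNA entry channel (chr17:24718116-24721929), had 32.5, 34.1 and 32.1 CPM in LINC01133 libraries, against 92.3, 86.9 and 87.1 CPM in control libraries. Rps28, near the mRNA exit (chr17:33819027-33824562), had 24.8, 25.6 and 25.2 CPM in LINC01133 libraries, against 59.4, 64.9 and 68.9 CPM in control libraries. The control values of Rps27 and Rps28 were more spread than those of Rps2, and no group overlapped. Log2 fold changes were -1.44 ± 0.0424 for Rps27, -1.43 ± 0.0414 for Rps2 and -1.35 ± 0.0485 for Rps28 (± SE; edgeR quasi-likelihood adjusted p from 3.7e-66 to 5e-41).

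The head of the small subunit, which swivels as tRNAs move, held many of the deep falls. All 13 head proteins analysed were lower and 7 (53.8%) fell over 2-fold, with a median log2 fold change of -1.09. Outside the head, 15 of 16 core small subunit genes were lower and 4 (25%) fell over 2-fold, with a median of -0.69. Over all genes tested 40.5% were lower and 13.9% fell over 2-fold. The difference between the head and the other genes was not tested. Rps19, the gene most often mutated in Diamond-Blackfan anaemia, a human failure of red cell production, had 79.6, 82.8 and 74.7 CPM with LINC01133, against 167, 163 and 173 CPM in controls (-1.09 ± 0.0313). Rps3, at the mRNA entry and also a DNA repair protein, had 502, 499 and 497 CPM with LINC01133, against 779.5, 800.4 and 755 CPM in controls (-0.64 ± 0.021). Rps25, which some viral internal ribosome entry sites require, had 47.4, 45 and 47 CPM with LINC01133, against 60, 69.2 and 68.9 CPM in controls (-0.51 ± 0.0429). These genes differed in depth of fall while the groups of each stayed apart.

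Of the proteins in the body and platform, Rps26, which touches the mRNA upstream of the start codon, had 57.1, 55.0 and 56.5 CPM with LINC01133, against 121, 129 and 139 CPM in controls (-1.21 ± 0.0355). Rpsa, known also as a laminin receptor, had 313, 314 and 306 CPM with LINC01133, against 619, 635 and 633 CPM in controls (-1.02 ± 0.0218). Rps23, whose loop reaches the decoding centre, had 12.2, 12 and 11.1 CPM with LINC01133, against 18.9, 20.1 and 21.7 CPM in controls (-0.78 ± 0.0737). None of these groups overlapped. Rps6, the substrate of the S6 kinases, had 141, 139 and 139 CPM with LINC01133, against 216, 219 and 204 CPM in controls (-0.61 ± 0.027). Another 13 core small subunit genes were all lower without overlap, from -1.23 ± 0.0274 (Rps10) to -0.49 ± 0.0334 (Rps24). Over all genes tested 40.5% were called lower and 40.5% lay lower without overlap. Rps13 (-0.40) and Rps15a (-0.32) fell least among the small subunit genes called, and Rps13 lost its call under library size alone (-0.15). Rps21 alone in this subunit was not called: it had 82.0, 87.4 and 84.0 CPM with LINC01133, against 85.8, 92.6 and 107 CPM in controls, which overlap (-0.17 ± 0.0842, edgeR quasi-likelihood adjusted p = 0.11). Rps21 was called lower under 6 of the 18 alternatives: no count filter, the replicate block, non-robust dispersions, voom, without control replicate 1 (-0.24, adjusted p = 1.3e-10) and without control replicate 3 (-0.09, adjusted p = 0.031). Its sign turned to 0.08 under library size alone.

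Grouped by ancestry, the genes shared with bacteria and those found only in eukaryotes and archaea both fell in nearly every case. Over all genes tested 40.5% were lower. All 17 universal large subunit genes were lower (median log2 fold change -0.54), as were 25 of 27 large subunit genes of eukaryotes and archaea (median -0.59), of which Rpl21 was higher and Rpl30 not called. All 15 universal small subunit genes were lower (median -0.81), as were 14 of 15 of eukaryotes and archaea (median -0.76, a list that includes Rps3a1). The 17 genes of the set known to be mutated in Diamond-Blackfan anaemia in humans were all lower, with a median of -0.62 and values from -1.44 (Rps27) to -0.16 (Rpl27). Under library size alone Rpl23a of the universal large subunit genes, Rpl27, Rpl36a and Rps21 turned just above 0.

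Paralogs of core proteins did not follow 1 direction. Rpl10l, a retrogene of Rpl10 used in the testis (chr12:66283379-66284401), had 0.374, 0.331 and 0.514 CPM with LINC01133, against 2.75, 3.62 and 3.71 CPM in controls, a log2 fold change of -3.04 ± 0.251 (adjusted p = 1.4e-22, edgeR's quasi-likelihood test). Rpl3l, a form of Rpl3 found in striated muscle (chr17:24727820-24736143), had 28, 39 and 38 counts with LINC01133, against 1, 2 and 7 counts in controls, a log2 fold change of 2.89 ± 0.436 (adjusted p = 1.5e-09 by the same test). Both are rare transcripts beside their core partners: per kilobase Rpl3l stood at 0.664 CPM with LINC01133 and 0.0884 CPM in controls, where Rpl3 stood at 106 CPM with LINC01133 and 142 CPM in controls. Rpl32l was lower (-0.63 ± 0.2, adjusted p = 0.0025), a call lost without control replicate 3 (-0.38, adjusted p = 0.12) and under library size alone (-0.39, adjusted p = 0.062). Rpl39l, with 3, 2 and 0 counts in LINC01133 libraries and 11, 4 and 8 counts in control libraries, was not tested. Rps4l, with 0, 3 and 2 counts in LINC01133 libraries and 1, 0 and 0 counts in control libraries, was not tested either. The listed paralogs left out of the set were all lower: Rpl22l1 at -1.73, Rps27l at -0.49 and Rpl7l1 at -0.38. Over all genes tested 40.5% were lower.

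Ribosomal proteins whose symbols fall outside the pattern moved the same way, 4 of 4 lower, against 40.5% of all genes tested. Rack1, a signalling scaffold on the small subunit head, had 1306, 1331 and 1310 CPM with LINC01133, against 2036, 2080 and 2031 CPM in controls (log2 fold change -0.64). Rps3a1 had 115, 111 and 110.0 CPM with LINC01133, against 299, 308 and 303 CPM in controls (-1.44). Fau, which codes for a ubiquitin-like fusion with a small subunit protein, had 72.1, 72.7 and 70.6 CPM with LINC01133, against 126, 117 and 119.8 CPM in controls (-0.75). The symbols Rpl18, Rpl26 and Rps27a were not analysed here.

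The depth of the fall went with the base composition of the transcript. Over the 73 core genes the Spearman correlation of the G and C content of the main transcript with the log2 fold change was -0.52 (Pearson -0.47), and it was -0.57 over the 44 large and -0.43 over the 29 small subunit genes. Over 12137 other tested genes it was 0.13. These are correlations across genes read from the same 6 libraries, given as a description, and genes are not independent replicates. Split at the core median of 51.8%, large subunit genes with less G and C had a median log2 fold change of -0.45 (22 genes) and those with more had -0.78 (22 genes). In the small subunit those medians were -0.70 (14 genes) and -0.96 (15 genes). The median G and C content was 51.7% over the large and 51.8% over the small subunit genes. The main transcript is the longest coding transcript marked as principal, so it can be a long form of a gene, and other forms were not measured this way. Rps20, at 41.3% in a main transcript of 3706 bases, stood off the pattern with a log2 fold change of -1.21. Rpl27, at 55.5%, stood off it with -0.16. Both genes were singled out after their values were seen.

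**Figure D4:**
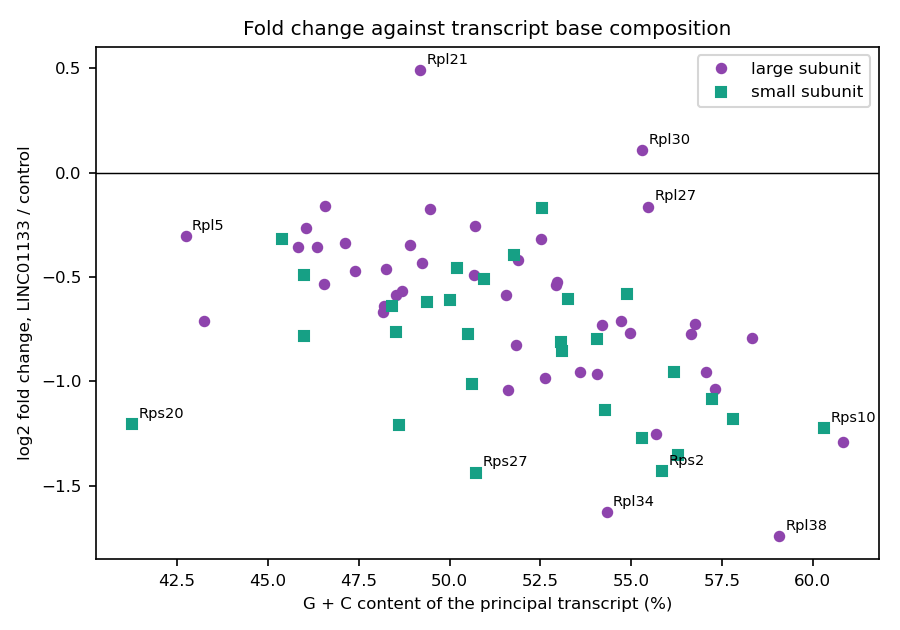
Each point is a core gene, with the G and C content of its main transcript (percent) on the x axis and its log2 fold change, LINC01133 over control, on the y axis, for large (circles) and small subunit genes (squares). Genes richer in G and C lie lower, with Rps20 and Rpl27 among those off the trend (Rpl27 turns to 0.08 under library size alone).

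Other properties followed the fold change less closely. The Spearman correlation with the log2 fold change was -0.37 for the level per kilobase and 0.21 for transcript length over the same 73 genes. For the level per kilobase it was -0.49 over the 44 large and -0.17 over the 29 small subunit genes. The value in the large subunit was thus not far from the -0.57 for G and C content there.

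Genes with much and with little shared sequence both fell. Ribosomal protein genes have many processed pseudogenes, so reads can match several loci. In 37 of the 73 core genes at least 50% of the 50-base stretches of the main transcript occurred in another annotated gene, and their median log2 fold change was -0.61. In the other 36 genes it was -0.77. All 9 genes with under 20% of stretches shared were lower, against 40.5% of all genes tested. Among them were Rps20 (-1.21), Rpl8 (-0.79), Rpl4 (-0.67), Rps3 (-0.64), Rpl39 (-0.57), Rps24 (-0.49), Rpl22 (-0.43) and Rps15a (-0.32). Over the 73 genes the Spearman correlation of the shared percentage with the log2 fold change was 0.10.

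Other mRNAs that carry a TOP motif fell in part. In a list of 19 such genes outside the ribosome 13 were lower (68.4%) and 5 higher (26.3%), against 40.5% and 44.5% of all genes tested. Their median log2 fold change was -0.36. Eef2, the translocase of elongation, had 2384, 2449 and 2406 CPM in LINC01133 libraries, against 5710, 5524 and 5580.5 CPM in control libraries (-1.22 ± 0.018). Eef1a1, which brings aminoacyl-tRNA, had 2435, 2428 and 2394 CPM in LINC01133 libraries, against 3785, 3732 and 3612 CPM in control libraries (-0.62 ± 0.0182). Pabpc1, the poly(A)-binding protein, had 1484, 1458 and 1479 CPM in LINC01133 libraries, against 2376, 2319.7 and 2338 CPM in control libraries (-0.67 ± 0.0185). These very abundant transcripts thus fell by as much as many members. The initiation factor subunit Eif3f (-0.88), the growth-linked protein Tpt1 (-0.36) and the nucleolar chaperone Npm1 (-0.29) were lower as well; Npm1 lost its call under library size alone (-0.05). Hnrnpa1, an RNA-binding protein of the list, was higher at 0.57, and the helicase Eif4a2 at 0.50.

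Genes that control TOP mRNAs or ribosome production numbered 7 lower (43.8%) and 8 higher (50%) of 16 tested, close to the shares over all genes (40.5% and 44.5%), with a median log2 fold change of 0.06. Myc, a transcription factor known to drive ribosome production, had 140.3, 147 and 143 CPM in LINC01133 libraries, against 51.9, 57.9 and 58.2 CPM in control libraries (1.36 ± 0.0345). Its mRNA was therefore higher in the libraries where ribosomal protein mRNAs were lower. Larp1 had 319.9, 328 and 322 CPM in LINC01133 libraries, against 288, 298 and 281 CPM in control libraries (0.16 ± 0.0235). Eif4ebp1, a repressor of cap-dependent initiation that mTOR switches off, had 48.3, 48.7 and 47.2 CPM in LINC01133 libraries, against 167, 169.9 and 179 CPM in control libraries (-1.84 ± 0.0331). Mtor changed little (-0.15), with its sign turning to 0.09 under library size alone. Igf2bp1, an RNA-binding protein known to bind Myc mRNA, was the regulator with the lowest fold change, at 1.60, 2.23 and 1.54 CPM with LINC01133, against 79.6, 87.7 and 83.4 CPM in controls (-5.52 ± 0.0763, adjusted p = 1.1e-103 by edgeR's quasi-likelihood test). The row for Tsc2, only 133 bases long, was listed at 0 in every library.

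**Figure D5:**
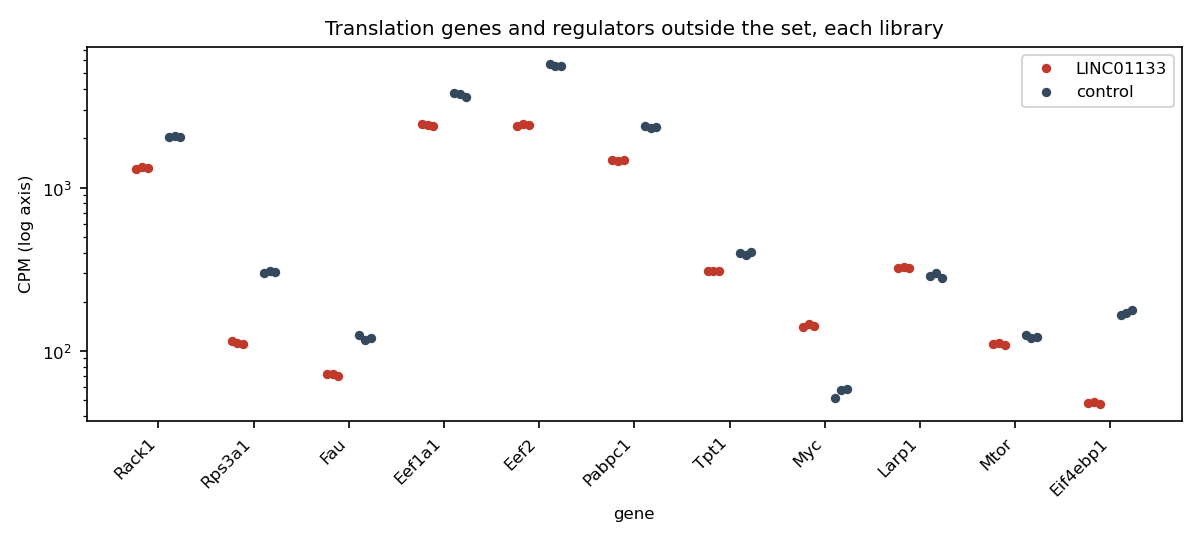
Points are libraries, with LINC01133 left of control for each gene, and CPM is on a log axis. Rack1, Rps3a1 and Fau (ribosomal proteins outside the naming pattern), Eef1a1, Eef2, Pabpc1 and Tpt1 (other TOP mRNAs) and Eif4ebp1 were lower with LINC01133, Myc and Larp1 higher, and Mtor lower by a small margin that turns to 0.09 (log2) under library size alone.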

How the data were processed

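The authors deposited raw counts per gene for the 6 samples, and per the file headers each row pairs a symbol with a UCSC transcript identifier and a length in bases. The submitters' processing notes name the mm10 build and bcl2fastq. Not given in the sources used here are the aligner, the counter, its annotation, its strand setting and its treatment of reads with several matches.

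Samples were grouped by their titles. Counts were fitted in R 4.3.3 with edgeR 4.0.16 (filterByExpr, TMM factors, robust glmQLFit, glmQLFTest) over all 14116 genes that passed the filter, with Benjamini-Hochberg adjustment over all of them and a threshold of 0.05. The script was tested on simulated data. CPM values use TMM-scaled library sizes, and the SE of a log2 fold change is its size divided by the square root of F. For a repeated symbol the row of highest mean stood for the gene. Replicates of a group differed by more than sampling noise (chi-square per degree of freedom 1.61 to 2.32), and each was counted as 1 sample. This spread does not tell separate cultures from repeat libraries of 1 culture.

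The members and the gene lists were chosen with earlier results of these data known. Genes named are the extremes of each subunit, its most abundant members per kilobase, members with fixed roles, paralogs, members not called lower, and up to 3 genes of each other list; any other gene named was singled out after its values were seen. Transcripts, shared 50-base stretches and coordinates came from GENCODE M21, and promoters from RefSeq. The main transcript of a gene was its longest coding transcript marked as principal. Some genes that enter the fit and the counts are not reported here by name.

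Alternatives tried were scaling by upper quartiles, by RLE or by library size alone, Rn45s left out, other count filters, summed rows of a symbol, the replicate number as a block, non-robust dispersions, DESeq2 1.42.0, limma 3.58.1 voom, an adjusted p under 0.01 and each sample left out.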

Additional observations from a re-analysis of the deposited data

How the results depend on the processing

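Of the results that compare the groups over the set, none changed direction. Members called lower numbered 63 to 74 over 18 alternatives and members called higher 2 to 3; 65 of the 76 tested members kept both call and sign under every one. The large minus small subunit difference of medians was 0.2045 to 0.23. Library size alone moved the large subunit median to -0.342 and the small to -0.5559, and upper-quartile scaling to -0.4868 (large) and -0.7009 (small). The small subunit median was -0.768 when a gene needed 1 CPM in 3 or more libraries and -0.8342 without control replicate 1. Leaving out each replicate gave 71 to 72 members lower, 2 higher, 42 to 44 large and 28 to 29 small subunit members lower, and medians of -0.625 to -0.5702 (large) and -0.8342 to -0.7884 (small). Library size alone reversed Mtor (0.0937), Rpl23a (0.07063), Rpl27 (0.08019), Rpl36a (0.08106) and Rps21 (0.07502); the cause was not tested.

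The replicate numbers did not pair the samples: same-numbered samples correlated at -0.019, -0.031 and -0.0022 in their deviations from the group means. With the number as a replicate block Rps21 was called lower (adjusted p = 0.00016) and Rpl23a was not called (adjusted p = 0.06), by edgeR's quasi-likelihood test. At these depths rare paralogs such as Rpl39l and Rps4l could not be tested.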

Other observations

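Factors that carry or load ribosomal proteins did not fall as a group. Of 15 such genes 10 were higher (66.7%) and 5 lower (33.3%) with LINC01133, against 44.5% and 40.5% of all genes tested. Their median log2 fold change was 0.18. Ipo5, an importin that brings ribosomal proteins into the nucleus, had 874, 875 and 889 CPM in LINC01133 libraries, against 474, 465 and 459 CPM in control libraries (0.92 ± 0.0208, SE). Ipo9, an importin of the same family, had 257, 253 and 258 CPM in LINC01133 libraries, against 409.8, 400.2 and 396 CPM in control libraries (-0.65 ± 0.0229). Heatr3, known for bringing Rpl5 and Rpl11 to the nucleus, had 123, 124 and 123 CPM in LINC01133 libraries, against 195, 191 and 198 CPM in control libraries (-0.66 ± 0.0274).

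Mitochondrial ribosomal proteins fell less than the cytosolic set. Of 13 sampled genes 7 were lower (53.8%), 1 was higher (7.69%) and 5 were not called. Over all genes tested 40.5% were lower and 44.5% higher. The median log2 fold change of the sampled genes was -0.13, against -0.65 over the members and 0.05 over all genes. Mrps7 was lower at -1.06, Mrpl12 at -0.70 and Mrps5 at -0.42.

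The ribosomal S6 kinases of the RSK family, which share the Rps prefix but are not ribosomal proteins, went both ways. Rps6ka1 was higher (log2 fold change 1.55) and Rps6ka2 lower (-2.09). Rps6ka6 had 621, 782 and 768 counts in LINC01133 libraries, against 1, 3 and 0 counts in control libraries.

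Rpl29 had 2 further rows with transcript identifiers of their own. One was lower like the row kept, at 3.19, 2.54 and 3.23 CPM with LINC01133, against 4.39, 4.91 and 4.69 CPM in controls (-0.65, edgeR quasi-likelihood adjusted p = 2.4e-05). The other was not called and lay above control in every LINC01133 library, at 2.17, 2.37 and 2.30 CPM, against 1.84, 1.62 and 2.01 CPM in controls (0.33, edgeR quasi-likelihood adjusted p = 0.11). The row kept for Rpl29 gave -0.73. A further row of Rps27 was lower (-1.61), as was the row kept for it (-1.44).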
